A study of Arabidopsis thaliana with 12 samples.

Results

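The 9 genes described here encode Arabidopsis proteins that carry a TIR domain, some with a nucleotide-binding (NBS) part, and that lack leucine-rich repeats (LRR). They were chosen by gene identifier, with earlier results of these data known, from a table of 33197 genes. Of them, 6 form a cluster on chromosome 1 (AT1G72890, AT1G72900, AT1G72910, AT1G72920, AT1G72930 and AT1G72940), and AT1G66090, AT1G57630 and AT3G04210 lie elsewhere. Transcripts were measured by RNA sequencing in whole seedlings of the Col-0 cultivar, 10 days old, that had stood in water overnight and were then given flg22 for 30 min or left without it. The asr3-1 group is a mutant of ASR3, a transcription factor of the trihelix family; OX9 is a single transgenic line that expresses HA-tagged ASR3 from the 35S promoter, which is active in most plant tissues; WT is the wild type. Each of the 6 groups (asr3-1, OX9 and WT, each with flg22 and without) had 2 libraries, from repeat 1 and repeat 2 of the experiment, and each library pooled RNA of 2 biological replicates. The flg22 dose is 100 nM in the design text and 100 mM in the treatment protocol, and which of these was used is not known here. Values are FPKM, fragment numbers divided by transcript length and library size, so that levels can be compared between genes.

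TIR domains of plants are enzymes that split NAD+ and make small signalling molecules. These molecules are sensed by complexes of EDS1 with PAD4 or SAG101, which act through the helper receptors of the ADR1 and NRG1 families and can lead to cell death and salicylic acid signalling. In TIR-NBS-LRR receptors the repeats sense microbial effectors, whereas short TIR and TIR-NBS proteins have no such part, and several of them have been linked to basal or receptor-triggered immunity. The peptide flg22 comes from bacterial flagellin and is perceived at the cell surface by the receptor kinase FLS2.

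In the RefSeq annotation of TAIR10.1 the cluster spans chr1:27429916-27443859, 13944 bases, with all 6 genes on the plus strand in the order of their numbers. The gaps between neighbours range from 30 bases, between AT1G72920 and AT1G72930, to 1523 bases, between AT1G72900 and AT1G72910, and 2 other annotated genes lie in the gaps. AT1G66090 lies at chr1:24602033-24604763 (plus strand), AT1G57630 at chr1:21345445-21346157 (plus strand, 1 exon) and AT3G04210 at chr3:1105650-1108252 (minus strand). RefSeq names AT1G72890, AT1G66090 and AT3G04210 TIR-NBS proteins and the other 6 TIR domain or TIR-like proteins. The annotated proteins measure 172 residues (AT1G57630) to 531 residues (AT3G04210). A P-loop, the glycine-rich motif that holds the phosphates of a bound nucleotide, was found in AT1G66090 and AT3G04210 and in none of the other 7, AT1G72890 included.

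Within the cluster the proteins fall into close pairs. AT1G72930, with 176 residues the shortest of the cluster, is 95.5% identical to AT1G72910 over its length. AT1G72920 and AT1G72940 share 86.9% of 268 aligned residues. AT1G72890 stands furthest from its neighbours, with 50.3 to 58.6% identity to the other 5. Outside the cluster AT1G57630 is nearest to AT1G66090 (57.8%) and AT3G04210 (56.2%). The likeness reaches the transcripts: 70 of 985 windows of 100 bases in the AT1G72930 transcript, and 70 of 1677 in that of AT1G72910, occur a further time in the genome, as do 4 each in AT1G72920 and AT1G72940. Reads of 100 bases from those stretches cannot be assigned to 1 gene, and the sources used here do not say how they were counted. The other 5 genes had no such window.

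The 250 bases before each annotated start were searched on both strands for TTGAC, the core of the W box that WRKY transcription factors bind. It occurs in 7 of the 9 windows and in 44.9% of 27443 promoters of the same length, and is missing from the windows of AT1G72890 and AT1G72920. The windows of AT1G72900, AT1G72920 and AT1G72930 run partly into a neighbouring annotated gene. The TTGAC of AT1G72900 (205 bases before its start) and every TTGAC of AT1G72930 (125 to 220 bases before) lie inside that neighbour. CGCG, the core bound by CAMTA calmodulin-binding factors, and GGTTAA, a GT element of the kind bound by trihelix factors, each occur in 1 of the 9 windows, that of AT1G66090, and in 10.1% and 14.6% of promoters. Below are windows read 5′ to 3′ on the plus strand of TAIR10.1 from RefSeq, with the searched motifs in capitals on either strand. They belong to AT1G66090, the gene with the highest response to flg22, and to AT1G72910 and AT1G72890 of the cluster. Of the cluster genes shown, AT1G72910 was raised and AT1G72890 was not. AT1G72920, not shown, also lacks TTGAC in its window and was raised.
AT1G66090 (chr1:24601783-24602032): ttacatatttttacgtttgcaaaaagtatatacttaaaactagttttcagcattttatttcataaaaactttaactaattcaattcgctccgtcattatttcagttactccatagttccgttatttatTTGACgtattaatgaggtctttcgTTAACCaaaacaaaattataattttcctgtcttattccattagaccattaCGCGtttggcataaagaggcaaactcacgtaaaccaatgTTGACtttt
AT1G72910 (chr1:27435056-27435305): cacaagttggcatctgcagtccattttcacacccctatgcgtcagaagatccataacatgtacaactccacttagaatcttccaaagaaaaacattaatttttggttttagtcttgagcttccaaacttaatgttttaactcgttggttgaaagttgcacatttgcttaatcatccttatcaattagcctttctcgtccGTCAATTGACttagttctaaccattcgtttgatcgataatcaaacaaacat
AT1G72890 (chr1:27429666-27429915): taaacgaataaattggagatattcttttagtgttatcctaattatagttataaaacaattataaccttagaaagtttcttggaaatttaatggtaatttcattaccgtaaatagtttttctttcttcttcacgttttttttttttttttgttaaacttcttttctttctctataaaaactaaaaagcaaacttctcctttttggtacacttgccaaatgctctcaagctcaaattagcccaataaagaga
In the AT1G66090 window TTGAC starts 122 and 9 bases before the gene, with GGTTAA (as its reverse complement) 98 and CGCG 48 bases before it. In the AT1G72910 window a TTGAC on each strand forms a palindrome that starts 51 bases before the gene.

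The palindrome recurs before AT1G72930. The windows of AT1G72910 and AT1G72930 hold an identical run of 81 bases, while the longest run shared by any other pair of the 9 windows is 23 bases. A stretch of 30 bases from this run is given for both genes, with the palindrome in capitals.
AT1G72910 (chr1:27435245-27435274): tttctcgtccGTCAATTGACttagttctaa
AT1G72930 (chr1:27439100-27439129): tttctcgtccGTCAATTGACttagttctaa
The copy before AT1G72930 begins 140 bases upstream of its start and lies inside the annotated AT1G72920 gene. The copy before AT1G72910 begins 61 bases upstream. A match to a motif is a description of the letters and says nothing of binding.

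Depth was not given as counts. The steps between the lowest FPKM values put the libraries at about 5900000 to 10900000 reads each, an estimate that entered no test. ASR3, read as a check of the genotype labels, stood at 2.51 to 6.58 FPKM in asr3-1 and 384 to 590 FPKM in OX9, against 6.24 to 9.59 FPKM in WT. It set OX9 apart but not every asr3-1 library: the untreated library labelled asr3-1 of repeat 1, at 6.58 FPKM, lay above both WT libraries of repeat 2, and below the 9.59 FPKM of the untreated WT library of its own repeat. MT1A, a metallothionein gene, made up 10.17 to 16.07% of all FPKM in each repeat 2 library and 1.46 to 1.78% in each repeat 1 library. Of 7 green tissue and 7 root markers none was at 0 in any library. Differences below are on log2(FPKM + 1), tested with limma over the 20753 genes that reached 1 FPKM in 2 or more libraries, with Benjamini-Hochberg adjusted p and a threshold of 0.05. All 9 genes met that minimum.

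Treatment with flg22 raised the transcripts of 8 of the 9 genes, and AT1G72890 was the exception. For those 8, all 6 libraries with flg22 lay above all 6 without it, which held for 6.19% of all genes tested. Fitted over the 3 genotypes with both repeats together, 5 of 9 passed the test, all of them higher (AT1G66090, AT1G72910, AT1G72920, AT1G57630 and AT1G72940), against 3.83% of all genes called higher and 0.265% called lower. The median log2 difference of the 9 was 2.63, against -0.03 for all genes tested. Since the 9 were chosen with earlier results of these data known, the shares of all genes beside them are descriptions and not a test. With the repeat number as a block, 8 of 9 passed as higher (10.1% of all genes called higher, 5.69% lower). AT1G72900, AT1G72930 and AT3G04210 then reached adjusted p = 0.00548, 0.016 and 0.0299 in place of 0.0633, 0.137 and 0.058. Without the block, libraries of the same repeat count as independent, although their deviations from group means were correlated. The block takes out a shared shift in level, but not a response that differs between repeats. The p-values of both fits may therefore understate variation from repeat to repeat.

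**Figure D1:**
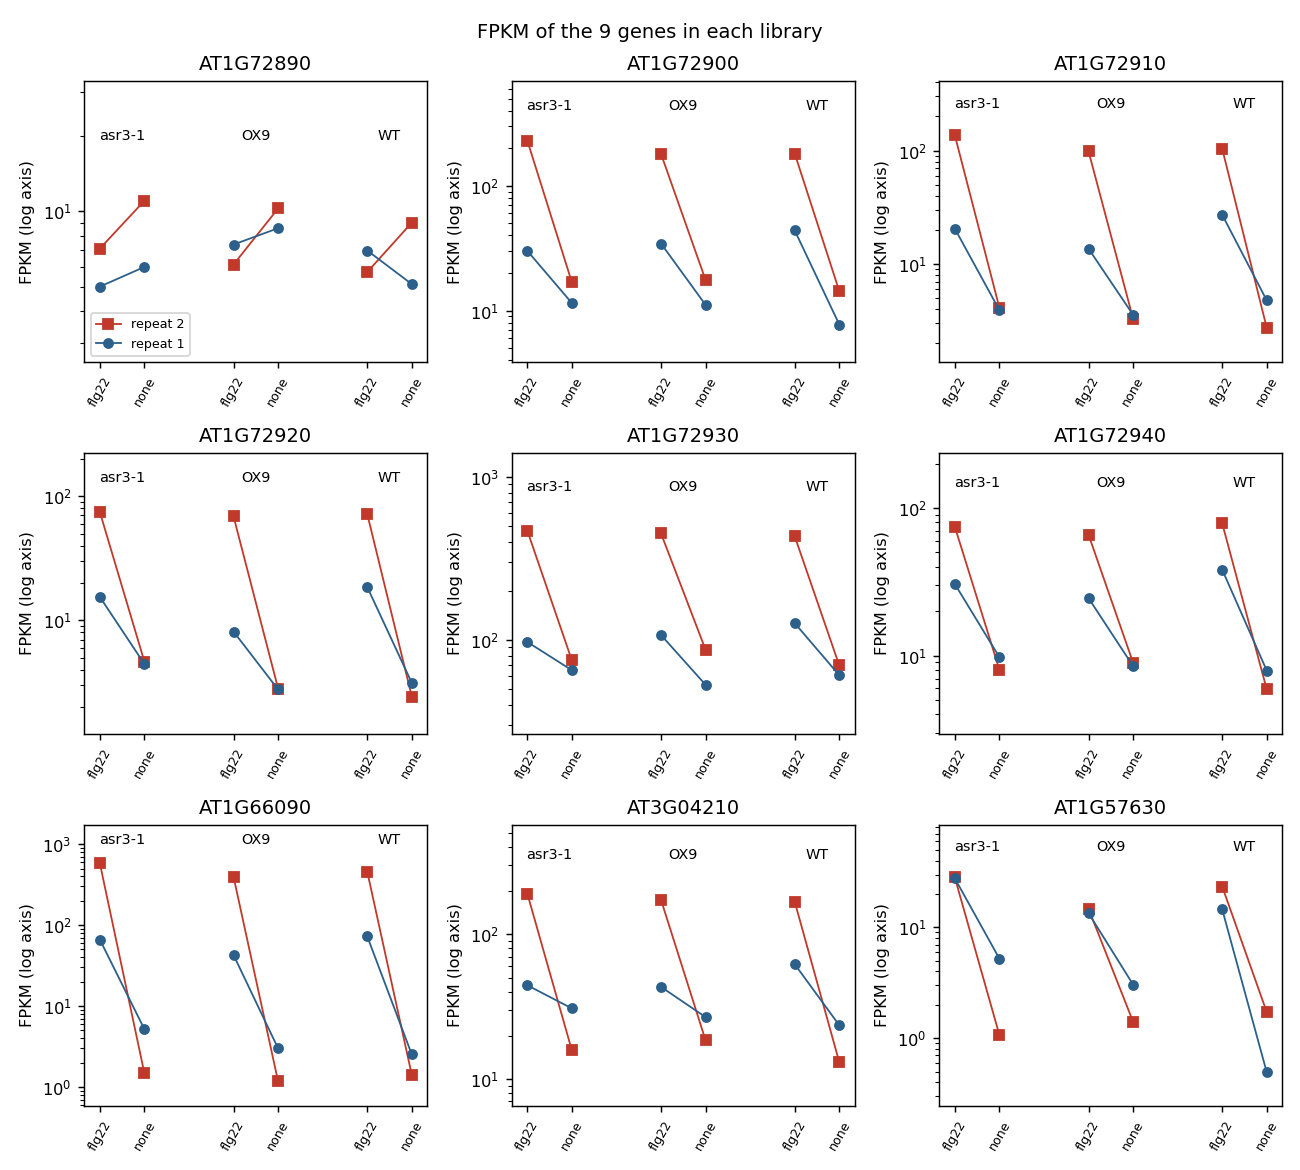
FPKM of each gene (log axis) in the 12 libraries; red squares are repeat 2 and blue circles repeat 1, lines join the library with flg22 (left) to the one without (right) of the same genotype and repeat. For 8 genes every library with flg22 lies above every library without; AT1G72890 stays between 5.01 and 11.0 FPKM throughout.

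Among the TIR-NBS genes with a P-loop, AT1G66090 had the largest difference of the 9. With flg22 it stood at 581, 395 and 458 FPKM in asr3-1, OX9 and WT of repeat 2, and at 66.2, 42.7 and 72.6 FPKM in repeat 1. Without flg22 the same genotypes held 1.47, 1.17 and 1.41 FPKM in repeat 2, and 5.17, 2.99 and 2.52 FPKM in repeat 1. From 1.17 to 5.17 FPKM without flg22, it thus stood after 30 min with AT1G72930 at the top of the 9 in every genotype of repeat 2. In repeat 1 it stayed below AT1G72930 in every genotype, and in OX9 just below AT3G04210 as well. The log2 difference was 5.71 (SE 0.78, adjusted p = 0.00894), and the FPKM ratio of paired libraries ran from 325 to 394 in repeat 2 and from 12.8 to 28.8 in repeat 1.

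AT3G04210, the longest protein of the 9, began from a higher level. It had 191, 173 and 168 FPKM with flg22 in asr3-1, OX9 and WT of repeat 2, and 44.5, 43.4 and 62.2 FPKM in repeat 1. Without flg22 it had 15.8, 18.5 and 13.1 FPKM in repeat 2, and 30.8, 26.8 and 23.5 FPKM in repeat 1. The groups did not overlap, but the lowest library with flg22 (43.4 FPKM) and the highest without it (30.8 FPKM) both came from repeat 1 and lay close. Over both repeats the log2 difference was 2.14 (SE 0.50, adjusted p = 0.058).

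The TIR genes of the cluster differed most in where they began. AT1G72930, the shortest and the most abundant, had 467, 449 and 432 FPKM with flg22 in asr3-1, OX9 and WT of repeat 2, and 97.3, 107 and 127 FPKM in repeat 1. Without flg22 it had 75.0, 87.1 and 69.8 FPKM in repeat 2, and 65.3, 53.1 and 60.8 FPKM in repeat 1. Its log2 difference of 1.7 (SE 0.52, adjusted p = 0.137) was the smallest of the 8 genes with a positive difference. The AT1G72910 protein has 380 residues, and 176 of them align with AT1G72930 at 95.5% identity. AT1G72910 had 137, 98.7 and 104 FPKM with flg22 in repeat 2 and 20.5, 13.7 and 27.2 FPKM in repeat 1. Its libraries without flg22 all lay between 2.74 and 4.79 FPKM. That is a log2 difference of 3.36 (SE 0.63, adjusted p = 0.0256), the largest of the cluster; the part that reads shared between the 2 genes have in either value was not tested.

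AT1G72920 stood at 74.4, 68.6 and 71.8 FPKM with flg22 in asr3-1, OX9 and WT of repeat 2 and at 15.4, 8.12 and 18.5 FPKM in repeat 1, against 2.44 to 4.65 FPKM in the 6 libraries without flg22 (log2 2.91, SE 0.60, adjusted p = 0.0366). For AT1G72940 the values with flg22 were 74.8, 66.0 and 78.8 FPKM in repeat 2 and 30.6, 24.6 and 38.2 FPKM in repeat 1, against 5.91 to 9.78 FPKM without it (log2 2.41, SE 0.32, adjusted p = 0.00824). Although their proteins share 86.9% of 268 aligned residues, the libraries without flg22 of these 2 genes did not overlap, AT1G72940 lying above AT1G72920. AT1G72900 had 230.2, 180.0 and 181 FPKM with flg22 in repeat 2 and 30.1, 34.5 and 43.9 FPKM in repeat 1, against 7.74 to 17.6 FPKM without it (log2 2.63, SE 0.63, adjusted p = 0.0633). The calls of AT1G72910 and AT1G72920, more than their sizes, changed with the libraries kept. Their log2 differences stayed at 2.90 to 3.82 and at 2.42 to 3.39 whichever library was left out, and both passed with the block (adjusted p = 0.00826 and 0.00963). Without the block, leaving out any 1 of the 6 libraries without flg22, or the flg22 library of asr3-1 or WT of repeat 2, ended both calls and left 3 of 9. Leaving out the flg22 library of OX9 of repeat 2 ended that of AT1G72920 and left 4 of 9, and 6 or 7 of 9 passed without a flg22 library of repeat 1.

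AT1G57630, a TIR protein encoded by a single exon, responded at low levels. It had 28.2, 14.7 and 23.4 FPKM with flg22 in asr3-1, OX9 and WT of repeat 2, and 27.7, 13.4 and 14.5 FPKM in repeat 1. Without flg22 it had 1.07, 1.41 and 1.72 FPKM in repeat 2, and 5.22, 3.05 and 0.491 FPKM in repeat 1. The lowest of these, WT of repeat 1, rests on about 2 reads by the estimate of depth, so the resting level was not well determined. The log2 difference was 2.85 (SE 0.31, adjusted p = 0.00395), with the smallest adjusted p of the 9.

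AT1G72890 opens the cluster, 174 bases before AT1G72900, and was not raised. With flg22 it had 7.10, 6.14 and 5.73 FPKM in asr3-1, OX9 and WT of repeat 2, and 5.01, 7.37 and 6.98 FPKM in repeat 1. Without flg22 it had 11.0, 10.3 and 9.02 FPKM in repeat 2, and 6.00, 8.57 and 5.13 FPKM in repeat 1. In repeat 2 all 3 libraries with flg22 lay below all 3 without, whereas in repeat 1 they overlapped. The share of all genes with this separation was not counted, and 10.1% of all genes were called lower in repeat 2. Over both repeats the log2 difference was -0.31 with a 95% half-width of 0.44 (adjusted p = 0.591, with the block 0.257).

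**Figure D2:**
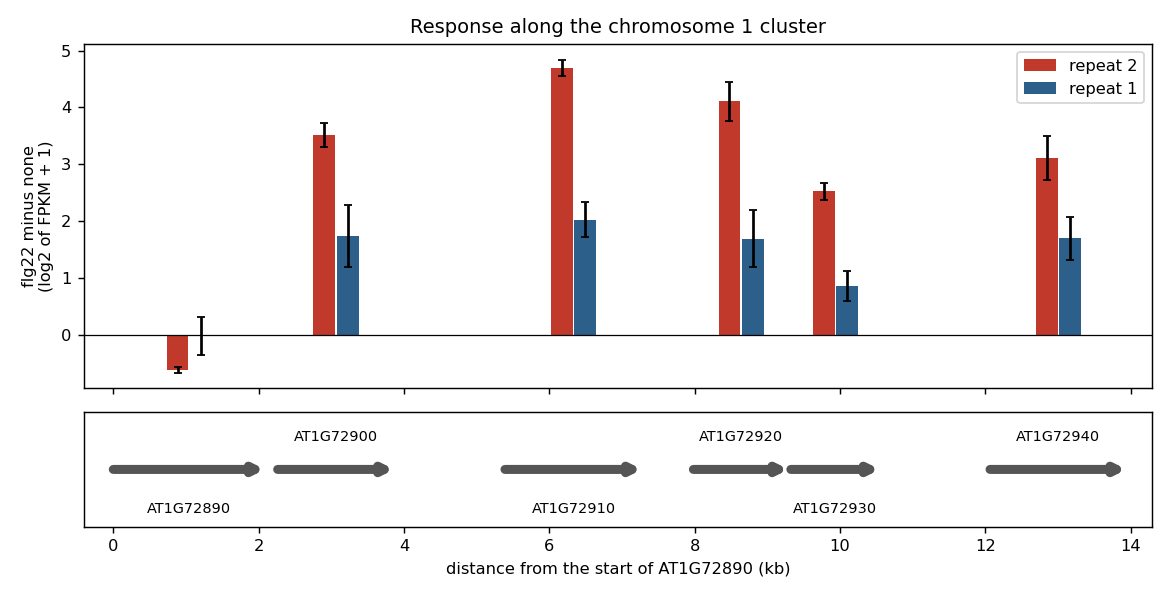
Upper panel: log2 difference of flg22 minus none (FPKM + 1) for the 6 cluster genes, mean and SD over 3 genotypes, repeat 2 in red left of repeat 1 in blue. Lower panel: the genes as arrows, to scale, by distance from the start of AT1G72890 in kb; the 2 other annotated genes of the region are not drawn. AT1G72890 lies at or below 0 and the other 5 above it in both repeats, highest for AT1G72910.

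The size of the response differed between the repeats. In the fits of the repeats the genotypes stand in as replicates, so the p-values do not measure variation from repeat to repeat. Fitted within each repeat, with genotype as a term, 8 genes were called higher and AT1G72890 lower in repeat 2 (14.1% of all genes called higher, 10.1% lower), and 8 were called higher and none lower in repeat 1 (7.41% higher, 2.9% lower). In repeat 2 the 8 differences ran from 2.53 (AT1G72930) to 7.65 (AT1G66090) on the log2 scale, and in repeat 1 from 0.85 (AT3G04210) to 3.76 (AT1G66090). AT1G72890 gave -0.60 in repeat 2 (adjusted p = 0.0231) and -0.01 in repeat 1 (adjusted p = 0.982).

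The test of the response in repeat 2 minus that in repeat 1 called 7 of 9 genes, all larger in repeat 2, against 8.13% of all genes larger and 3.13% smaller. The excess was 3.89 (SE 0.24, adjusted p = 4.62e-05) for AT1G66090, 2.67 (SE 0.27) for AT1G72910, 2.57 (SE 0.23) for AT3G04210 and 2.41 (SE 0.30) for AT1G72920. It was 1.77 (SE 0.25) for AT1G72900, 1.66 (SE 0.17) for AT1G72930 and 1.41 (SE 0.25) for AT1G72940, with adjusted p from 0.000130 to 0.00463 for these 6 genes. The same 7 had the larger response in repeat 2 in all 3 genotypes, as did 26.0% of all genes. AT1G57630 (0.76, SE 0.61, adjusted p = 0.535) and AT1G72890 (-0.59, SE 0.23, adjusted p = 0.158) did not pass. The repeats also differed in MT1A, as given above, and in the sums of the 7 green tissue and the 7 root markers without flg22. The green sum was 25225 to 27793 FPKM in repeat 2 and 30479 to 35380 FPKM in repeat 1. The root sum was 804 to 1341 FPKM in repeat 2 and 1687 to 1921 FPKM in repeat 1. Most of the root sum came from 1 gene, PYK10, with means of 916 and 1704 FPKM. Of the 7 root markers, 2 were called lower in repeat 2 without flg22 and none higher. Of the 7 green tissue markers, 3 were called lower and 3 higher. Of all genes, 21.4% were called lower and 23.1% higher. The part of these differences in the result was not tested.

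**Figure D3:**
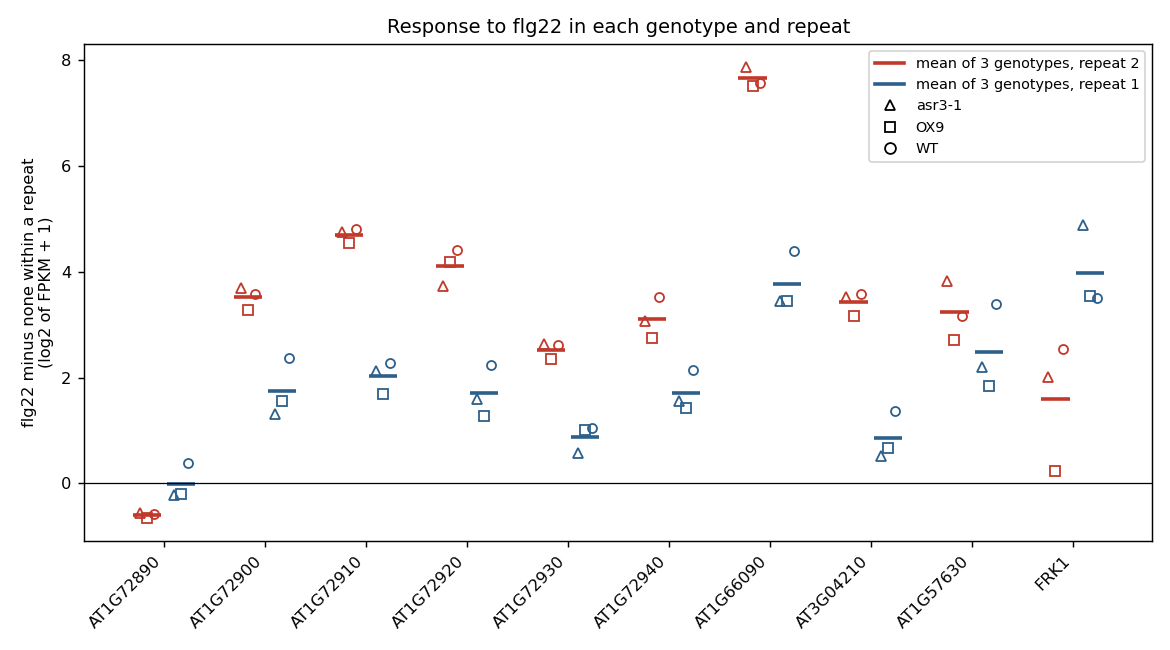
Log2 difference of flg22 minus none (FPKM + 1) for each genotype within repeat 2 (red) and repeat 1 (blue); symbols mark asr3-1, OX9 and WT, and bars the mean of the 3. The 3 genotypes of repeat 2 lie above those of repeat 1 for 7 of the 9 genes, and for the receptor kinase gene FRK1 they lie below.

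Resting levels differed between the repeats as well, in both directions. Without flg22, AT1G66090 was lower in repeat 2 than in repeat 1 by a log2 difference of -0.91 (adjusted p = 0.00204) and AT3G04210 by -0.74 (adjusted p = 0.00542). AT1G72900 (0.65, adjusted p = 0.0143), AT1G72890 (0.57, adjusted p = 0.0172) and AT1G72930 (0.37, adjusted p = 0.033) were higher in repeat 2. These 5 of 9 stand beside 23.1% of all genes higher and 21.4% lower in repeat 2, so a change in resting level was common in the table. The untreated libraries enter both this comparison and the one of responses, so the values of a gene in the 2 are not independent.

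Ordered by level without flg22, AT1G72930 came first at 53.1 to 87.1 FPKM, clear of AT3G04210 at 13.1 to 30.8 FPKM. AT1G72900 (7.74 to 17.6 FPKM), AT1G72890 (5.13 to 11.0 FPKM) and AT1G72940 (5.91 to 9.78 FPKM) followed with overlapping ranges. The lowest 4 were AT1G72910, AT1G72920, AT1G66090 and AT1G57630, none above 5.22 FPKM and all overlapping. With flg22 the order changed. In repeat 2 AT1G66090 and AT1G72930 overlapped at the top, followed by AT1G72900 and AT3G04210, which also overlapped, then AT1G72910, then AT1G72920 and AT1G72940 together, then AT1G57630, with AT1G72890 last. In repeat 1 AT1G72930 alone led, and AT1G66090 overlapped AT3G04210.

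No difference between genotypes passed the test for any of the 9 genes. This held for asr3-1 against WT and OX9 against WT, with flg22 and without, and for the difference of their flg22 responses from that of WT. No gene of the 9 had an unadjusted p under 0.05 in these 6 comparisons, with or without the block, and no adjusted p was below 1. Of all genes, OX9 against WT called 0.00964% higher without flg22 and 0.00482% higher with it, and the other shares were 0.0%. Without flg22 the 9 log2 differences ran from 0.10 to 0.83 for asr3-1 and from -0.07 to 0.63 for OX9, and with flg22 from -0.19 to 0.57 for asr3-1 and from -0.58 to 0.08 for OX9. The 95% half-widths of these values were 0.77 to 3.11, so differences of several-fold in either direction lie within the intervals of most genes. The response differed from that of WT by -0.66 to -0.11 in asr3-1 and by -1.0 to -0.15 in OX9, with half-widths of 1.09 to 4.40; these comparisons share the WT libraries. Every one of these ranges reached both sides of 0 once single libraries were left out. With 1 library left out, the response in asr3-1 differed from that of WT by as little as -1.91 and as much as 1.24, and that in OX9 by -2.09 to 1.09. With flg22 the differences then reached from -1.54 to 1.66 for asr3-1 and from -2.07 to 1.11 for OX9, and without it from -0.23 to 1.63 and from -0.42 to 1.07. Each library compared moved a limit of its ranges by over 1.5 times, other than the untreated WT library of repeat 2 in the response of OX9.

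Read within repeats, the direction of asr3-1 against WT under flg22 changed. In repeat 2, 8 of 9 genes were above WT in asr3-1, and in repeat 1, 8 of 9 were below. AT1G57630 was above in both repeats, as were 27.3% of all genes, and AT1G72940 below in both, as were 23.7%. The shares of all genes above or below WT in a single repeat were not counted. OX9 with flg22 was below WT for 6 of 9 genes in both repeats, a direction that 29.3% of all genes shared. Without flg22 asr3-1 was above WT for 7 of 9 genes in both repeats, against 31.2% of all genes. These counts carry no test, and the genes vary together across libraries.

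Within single genotypes flg22 against none called 0 of 9 genes in asr3-1, OX9 and WT, with and without the block, where the fit called 0.193%, 0.0% and 0.101% of all genes higher and 0.0% lower. With the block these shares were 1.59%, 0.0482% and 0.52% higher, and 0.222%, 0.0% and 0.0434% lower. At an unadjusted p under 0.05 there were 6, 5 and 7 genes of the 9, beside 7.86%, 4.57% and 6.78% of all genes, and with the block 7, 7 and 8, beside 18.7%, 13.3% and 15.9%. The smallest adjusted p among the 9 was 0.09 in asr3-1, 0.59 in OX9 and 0.10 in WT.

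The genes through which TIR signals pass were followed from a list of 9 EDS1 family members and helper receptors. All 9 lay above 0 with flg22, with a median log2 difference of 1.54 (all genes -0.03); none passed in the fit over the 3 genotypes and 7 with the block. In repeat 2, 8 of 9 passed as higher, and in repeat 1, 6 of 9. EDS1 averaged 98.3 FPKM with flg22 and 10.7 FPKM without in repeat 2, and 25.3 and 12.4 FPKM in repeat 1. PAD4 gave log2 differences of 2.78 in repeat 2 and 0.95 in repeat 1, SAG101 2.83 and 0.93, and ADR1 1.22 and 0.34, the last not past the test (adjusted p = 0.16). The excess of repeat 2 was called for 8 of the 9, among them EDS1 (2.11, adjusted p = 6.7e-05), PAD4 (1.83, adjusted p = 6.4e-05), SAG101 (1.90, adjusted p = 7.2e-05) and ADR1 (0.87, adjusted p = 0.015).

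Chaperones of NBS-LRR receptors gave a mixed picture. Of 5, only SGT1A, a co-chaperone of HSP90, passed over the 3 genotypes (log2 2.2, adjusted p = 0.0033; with the block 0.0013). HSP90.1, a heat-inducible HSP90, went the other way between repeats from the TIR genes, with a log2 difference of 0.46 in repeat 2 (adjusted p = 0.15) and 3.04 in repeat 1 (adjusted p = 1.8e-05). The difference between the repeats was -2.58 (adjusted p = 0.00036). HSP90.2 (0.25, adjusted p = 0.65) and RAR1 (-0.12, adjusted p = 0.80) did not pass.

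TIR-NBS-LRR receptors, by RefSeq product, were 91 genes, of which 69 met the minimum level. With flg22, 64 of the 69 lay above 0 with a median log2 difference of 0.66; 6 passed as higher and none as lower, and 44 with the block. The 4 with the smallest adjusted p were AT4G11170 (1.8, adjusted p = 0.028), AT5G41740 (3.64, 0.029), AT5G41750 (4.52, 0.032) and AT5G45000 (0.65, 0.035). AT5G41740 averaged 150 FPKM with flg22 and 3.59 FPKM without in repeat 2, and 20.8 and 3.62 FPKM in repeat 1. The response was called larger in repeat 2 for 36 of the 69 and smaller for 1.

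Of 32 other TIR or TIR-NBS genes without LRR, 17 met the minimum level, and the median log2 difference was 0.24. AT5G44910 passed (2.40, adjusted p = 0.0089), and with the block 4 of 17 did. AT2G20142 (3.36, adjusted p = 0.057, with the block 0.0059) averaged 133 FPKM with flg22 and 4.58 FPKM without in repeat 2, and 15.1 and 2.53 FPKM in repeat 1. AT1G72950 gave 1.25 (adjusted p = 0.085, with the block 0.030) and AT5G44900 0.37 (adjusted p = 0.34). Whether the 9 genes respond more than these 17 or the 69 receptors was not tested.

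Early flg22 markers split between the repeats. All 8 lay above 0 in both repeats, and 7 passed as higher in repeat 2 and 8 in repeat 1. CYP81F2, an enzyme of indole glucosinolate synthesis, gave 7.21 in repeat 2 and 3.58 in repeat 1, MYB51, a regulator of that pathway, 5.67 and 2.71, and WRKY33, a factor of pathogen defence, 5.10 and 3.01; for these the excess of repeat 2 passed the test (3.63, adjusted p = 0.0023; 2.96, 7.2e-05; 2.09, 0.0097). WRKY29 gave 2.11 in repeat 2 and 2.01 in repeat 1 (difference 0.10, adjusted p = 0.95). FRK1, a receptor-like kinase gene often used to read the flg22 response, gave 1.59 in repeat 2 (adjusted p = 0.071) and 3.97 in repeat 1 (adjusted p = 0.0028), a difference of -2.38 that did not pass (adjusted p = 0.10).

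**Figure D4:**
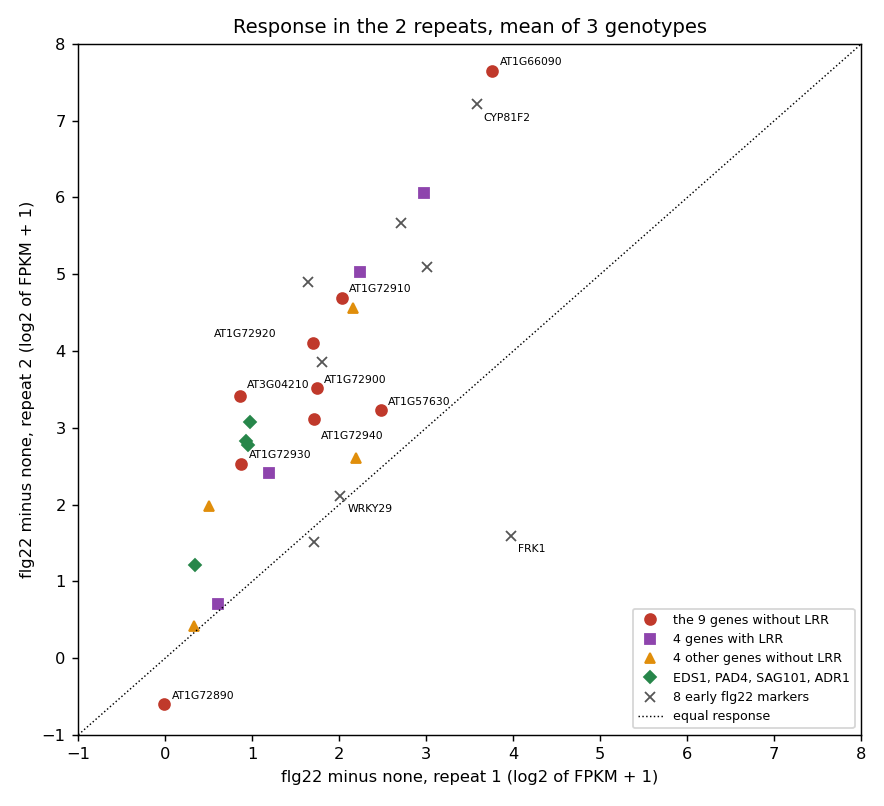
Log2 difference of flg22 minus none (FPKM + 1), mean of 3 genotypes, in repeat 2 (y) and repeat 1 (x), for the 9 genes (red circles), 4 TIR-NBS-LRR genes, 4 other genes without LRR, EDS1, PAD4, SAG101 and ADR1, and 8 early flg22 markers; the dotted line marks equal responses. Of the 9 genes, 8 lie above the line, AT1G66090 at 7.65 and 3.76, while FRK1 lies below it at 1.59 and 3.97.

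Across the 12 libraries the levels of 7 genes (all but AT1G72890 and AT1G57630) followed each other closely, with Pearson r of 0.911 to 0.993 on log2(FPKM + 1). AT1G57630 reached 0.724 to 0.919 with these 7, and AT1G72890 -0.526 to -0.264. The points share the contrast of flg22 and the difference between repeats, so these values describe the libraries and are not a test. By the same measure the genes outside the 9 most like AT1G72910 were WRKY46 (r 0.998), AT2G39650 (0.997) and the calcium-dependent kinase gene CPK28 (0.997). AT1G66090 was most like SYP121 (0.998), the syntaxin of penetration resistance also called PEN1, AT1G72930 most like WRR4 (0.997), a TIR-NBS-LRR gene of white rust resistance, and AT1G72900 most like IGMT4, AT1G11050 and the transporter gene PEN3 (0.995 each). The salicylic acid receptor gene NPR3 (0.995) came second to AT3G14870 (0.996) for AT3G04210. Likeness was lower for AT1G57630, whose nearest gene was the glutathione transferase GSTF6 (0.980), and lower again for AT1G72890, with ARFB1A at 0.929.

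Whole seedlings mix tissues, and fewer cells of a type and less RNA per cell cannot be told apart in them. With flg22 the summed level of the 7 green tissue markers was 21468 to 27258 FPKM in repeat 2 and 25174 to 28706 FPKM in repeat 1, against 25225 to 27793 FPKM and 30479 to 35380 FPKM without it. Of the 7, none passed over the 3 genotypes, and 4 were called lower with the block. The root marker sum, most of it from PYK10, was 1255 to 1546 FPKM with flg22 in repeat 2 and 1372 to 1464 FPKM in repeat 1. Without flg22 it was 804 to 1341 FPKM and 1687 to 1921 FPKM. None of the 7 root markers passed over the 3 genotypes, with or without the block. The part of these shifts in the values of the 9 genes was not tested.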

How the data were processed

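FPKM values of 12 libraries were used as deposited by the authors, per the file headers, with TAIR10, TopHat2 2.0.12 and Cuffdiff 2.2.1 among the build and tools named in the submitters' processing notes, without their roles. No counts are given, so precision comes from the spread between libraries. Each pools RNA of 2 biological replicates, and p-values of the group comparisons measure the spread between such pools. For flg22 over the genotypes, those p-values treat the genotypes as separate replicates of the response, although only 2 repeats stand behind it. They may understate the variation of the response between repeats, with or without the block. Of 33373 table lines with an identifier, 176 lines of 88 repeated identifiers were left out, as were 693 without one, and 33197 genes stayed.

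On log2(FPKM + 1), the 20753 genes that reached 1 FPKM in 2 or more of 12 libraries were fitted with limma 3.58.1 in R 4.3.3, with trend and robust moderation and a mean for each of 6 groups. Benjamini-Hochberg adjusted p-values were taken over all genes in each comparison, 2-sided, with a threshold of 0.05. The flg22 comparison over the 3 genotypes averages the 3 differences. Repeats were compared in a model with a mean for each treatment in each repeat and genotype as a term. There the 3 genotypes stand in as replicates. The p-values of that model measure the spread between genotypes within a repeat, not the variation between repeats. The repeat numbers mark independent repeats per the design text, and deviations of same-numbered libraries from their group means correlated at 0.568 to 0.805 over 15 pairs of groups, so the numbers pair the libraries and a fit with the repeat as a block is given where it changes a call.

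Promoters, transcripts and proteins were read with Biopython 1.88 from RefSeq's TAIR10.1; no position comes from the authors' files. The limma steps were tested on simulated data with independent noise for each library and no effect of the repeat. Since these libraries do share deviations within a repeat, that run checks the computation and not the calls. The 9 genes and the lists were chosen with earlier results of these data known. From each list up to 4 genes with the smallest adjusted p over the 3 genotypes are named, and the early markers also by repeat; for likeness, up to the 3 genes with the highest r. Alternatives were another pseudocount (0.1), other filters and scalings, limma without trend and robust moderation, fits of the compared groups alone, and each library left out. Fits within each repeat and the counts of direction within repeats were added after the data were seen.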

Additional observations from a re-analysis of the deposited data

Results flagged for a closer look

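The response to flg22 on the log2(FPKM + 1) scale differed between the repeats, by limma's test of repeat 2 minus repeat 1, for 7 of the 9 genes. The difference was 3.89 for AT1G66090, 2.67 for AT1G72910, 2.57 for AT3G04210, 2.41 for AT1G72920, 1.77 for AT1G72900, 1.66 for AT1G72930 and 1.41 for AT1G72940. Among the early flg22 markers it also passed for CYP81F2 (3.63), WRKY53 (3.26), MYB51 (2.96), WRKY33 (2.09) and PHI-1 (2.05). All 12 were larger in repeat 2. No cause of the difference was tested.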

How the results depend on the processing

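For flg22 over the 3 genotypes, 5 of 9 genes passed as reported, 8 with the replicate block, 8 with the block and a repeat-by-treatment term, 2 with no filter on low values, where more genes are adjusted over, and 3 to 7 when single libraries were left out. Within repeat 1 8 passed and within repeat 2 9, both chosen after seeing the data. In these fits and in the one with the repeat-by-treatment term the genotypes stand in as replicates. Their p-values do not measure variation between repeats. The p-values of the other fits over the 3 genotypes may understate it, since those fits have no term for a response that differs between repeats. Another pseudocount, filter, scaling or moderation left the count at 5. These counts stand beside very different numbers of all genes called. As reported, 3.83% of all genes were called higher and 0.265% lower, against 10.1% and 5.69% with the block. Among these fits the number was highest with the repeat-by-treatment term and lowest with no filter on low values. With single libraries left out, it fell where fewer of the 9 passed than reported and rose where more did. For repeat 2 against repeat 1 without flg22, 5 passed as reported, 2 with no filter, 4 without trend and robust moderation, and 3 to 5 with a library left out, 3 without the untreated library of WT repeat 1, asr3-1 repeat 2 or OX9 repeat 2. AT1G57630 passed there (-1.08, adjusted p = 0.016) without the untreated library of WT repeat 1, the one with about 2 reads. The 7 genes with a larger response in repeat 2 numbered 7 under every alternative run. The comparisons within genotypes and between genotypes stayed at 0 of 9 throughout. With a library left out, limits of both response comparisons and both of asr3-1 against WT changed sign, as given in the report. Of single-gene values, signs changed, with a library left out, for AT1G72890 in WT with flg22 (-0.10 as reported, -0.45 to 0.26), and AT1G72920 (-0.07, -0.19 to 0.14) and AT1G72940 (-0.18, -0.38 to 0.019) in repeat 2 against repeat 1 without flg22. The block changed no call other than the 3 given in the report. Depth limits AT1G57630 most, with about 2 to 166 estimated reads.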

Other observations

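The make-up of the cluster's transcripts shifted with flg22. The summed level of its 6 genes was 869 to 990 FPKM with flg22 and 104 to 130 FPKM without in repeat 2, and 195 to 262 FPKM with flg22 and 87.7 to 101 FPKM without in repeat 1. AT1G72930 alone gave 47.2 to 54.9% of that sum in the 6 libraries with flg22, against 60.6 to 67.9% in the 6 without, and the ranges did not overlap. These shares are descriptions with no test. Some reads of AT1G72930 and AT1G72910 cannot be told apart, and their part in the shares was not tested.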
